A study of Mus musculus with 4 samples.

Results

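The genes of the mitochondrial ribosomal proteins were followed through mouse liver after an ethanol binge. Members were the rows whose symbol is Mrpl (large subunit) or Mrps (small subunit) followed by a number and at most 1 letter. They were 78 of the 22155 symbols in the deposited table, 49 of the large and 29 of the small subunit, and 77 of them (48 large, 29 small) were among the 13309 genes with enough counts to test. Messenger RNA was sequenced from whole liver of C57BL/6 wild-type mice, an inbred laboratory strain, aged 8 to 10 weeks. All animals received the Lieber-DeCarli liquid diet with 5% ethanol for 10 days. The ethanol alone group received nothing further according to its sample titles, and the gavage group also received 1 dose of ethanol, 5 g per kg body weight, through a stomach tube, with the liver taken 9 h later. Each group held 2 libraries. There was no group without ethanol. The sources used here do not give the sex, any control gavage, or when the mice without a binge were killed. The labels name no separate animals behind the libraries of 1 group. Each p-value below therefore measures only the spread between these samples, which may be technical.

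Mitochondria carry their own small genome and translate its messenger RNAs, all of which encode subunits of the respiratory chain and ATP synthase, on a ribosome of their own. The RNA parts of that ribosome are made inside the organelle, while every one of its proteins is encoded in the nucleus, made in the cytosol and imported. Some of the proteins descend from bacterial ribosomal proteins and others have no bacterial counterpart. Hepatocytes are rich in mitochondria, where acetaldehyde from ethanol is oxidised.

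Values are CPM, read counts relative to library size, with sizes scaled by TMM, a method that sets the bulk of genes equal between libraries. A log2 fold change is the gavage group over ethanol alone, from a quasi-likelihood test fitted across all tested genes, and p-values were adjusted over all of them. Where 4 values are given they run from ethanol alone replicates 1 and 2 to gavage replicates 1 and 2. Total counts ranged from 28791281 to 30347558 per library. Summed hepatocyte markers lay between 107650 and 142127 CPM in all 4 libraries, so the labelled tissue carried its defining genes. Some libraries also held RNA of other tissues. The 4 pancreas markers in the table summed to 723 CPM in ethanol alone replicate 1 against 8.19, 4.43 and 5.41 in the other libraries, and 7 skeletal muscle markers summed to 350, 10.1, 643 and 1.13 CPM, high in both replicates numbered 1.

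After the binge, most mitochondrial ribosomal protein messages lay slightly lower, in both subunits, and 1 small subunit gene, Mrps18b, lay far higher. The log2 fold change was under 0 for 71 of the 77 tested members, 46 of 48 in the large and 25 of 29 in the small subunit, where 48.3% of all tested genes were under 0 and 51.7% over 0. The median was -0.34 over all tested members, -0.31 for the large and -0.42 for the small subunit, against 0.02 over all genes. No member passed the adjusted threshold of 0.05 in either direction in edgeR's quasi-likelihood test, and neither did any other gene (0.0% of 13309 called higher and 0.0% lower, smallest adjusted p 0.0638).

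At an unadjusted p under 0.05, 1 member lay higher and 12 lower, beside 8.91% of all tested genes higher and 9.85% lower. The 12 were Mrpl11, Mrpl14, Mrpl18, Mrpl27, Mrpl28, Mrpl34, Mrpl45, Mrpl49, Mrps11, Mrps12, Mrps16 and Mrps24. The groups did not overlap for 51 members, 50 with both gavage libraries lower and 1 with both higher, where 27.2% of all tested genes had gavage lower without overlap and 27.5% higher. With DESeq2, 1 member was called higher (Mrps18b) and 4 lower (Mrpl14, Mrpl18, Mrpl28 and Mrpl34), beside 3.94% and 4.9% of all genes. With edgeR's likelihood-ratio test 1 was called higher (Mrps18b) and 1 lower (Mrpl14), beside 2.14% and 1.98%. In whole tissue, fewer cells with much of these messages and less message per cell cannot be told apart.

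**Figure D1:**
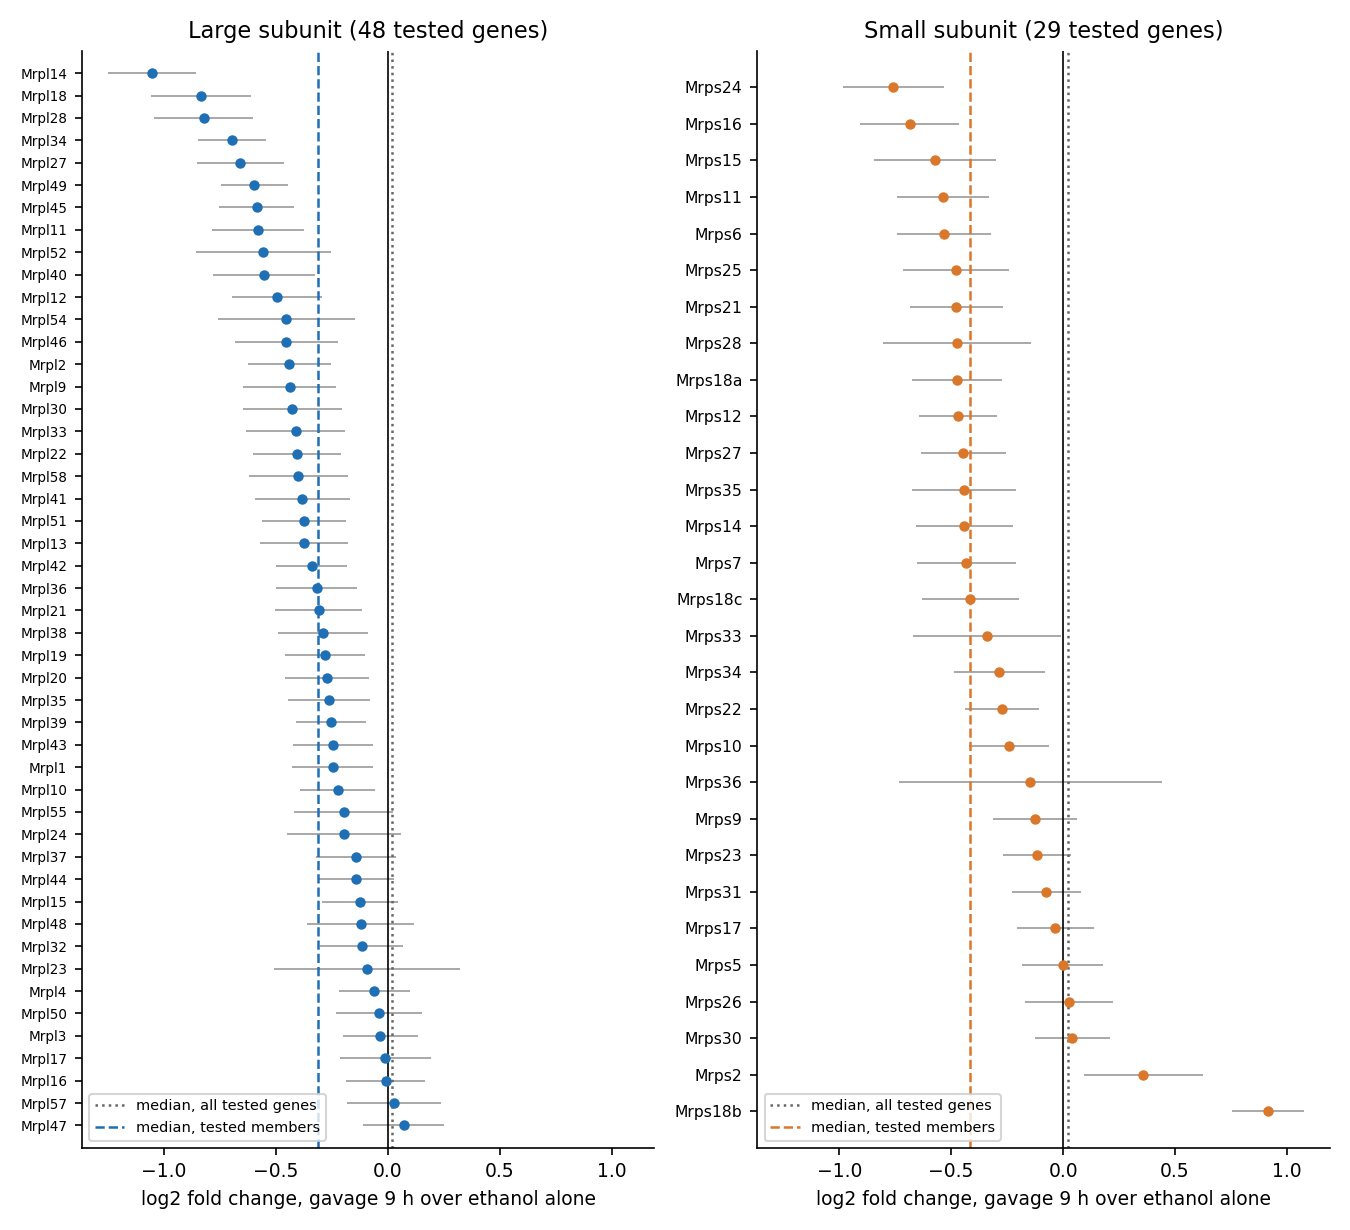
Log2 fold change of each tested member, gavage 9 h over ethanol alone, with the large subunit at the left and the small subunit at the right (bars are the SE; dashed line, median of the members shown; dotted line, median of all 13309 tested genes). Most points lie left of 0, with medians of -0.31 and -0.42, while Mrps18b lies at 0.91.

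The size of the difference depended on the library of ethanol alone it was set against. Over all members, ethanol alone summed to 2370 and 1930 CPM and gavage to 1684 and 1798 CPM. Ethanol alone replicate 1 stood highest, replicate 2 between it and the gavage libraries, and the groups did not overlap. As a share of all counts the members took 0.225%, 0.192%, 0.177% and 0.180%. Ethanol alone replicate 1 was the highest of the 4 libraries for 64 of 77 members, and gavage replicate 1 the lowest for 43.

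Within ethanol alone, replicate 1 exceeded replicate 2 for 67 of the 77 members, with a median log2 ratio of 0.30, whereas over all tested genes it did so for 6693 of 13309, with a median of 0.00. Within the gavage group, replicate 1 exceeded replicate 2 for 26 members, with a median of -0.11. Measured from each gene's mean over the libraries, the median member lay at 0.32, 0.01, -0.20 and -0.12 on the log2 scale. The distance between the replicates of ethanol alone was thus close to the median difference between groups.

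Without ethanol alone replicate 1, the library with the pancreas markers, the median of the members was -0.20 and 63 of 77 were under 0, with 8 members lower at an unadjusted p under 0.05, beside 7.55% of all genes tested in that fit. Without ethanol alone replicate 2 it was -0.52, and 42 members lay lower at that threshold, beside 14.1% of genes. Leaving out gavage replicate 1 gave -0.30 with 65 of 77 under 0 and 1 member lower, beside 3.87% of genes, and leaving out gavage replicate 2 gave -0.38 with 2 lower, beside 4.9%. All 4 medians were below 0, while the counts at the unadjusted threshold ranged from 1 to 42.

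**Figure D2:**
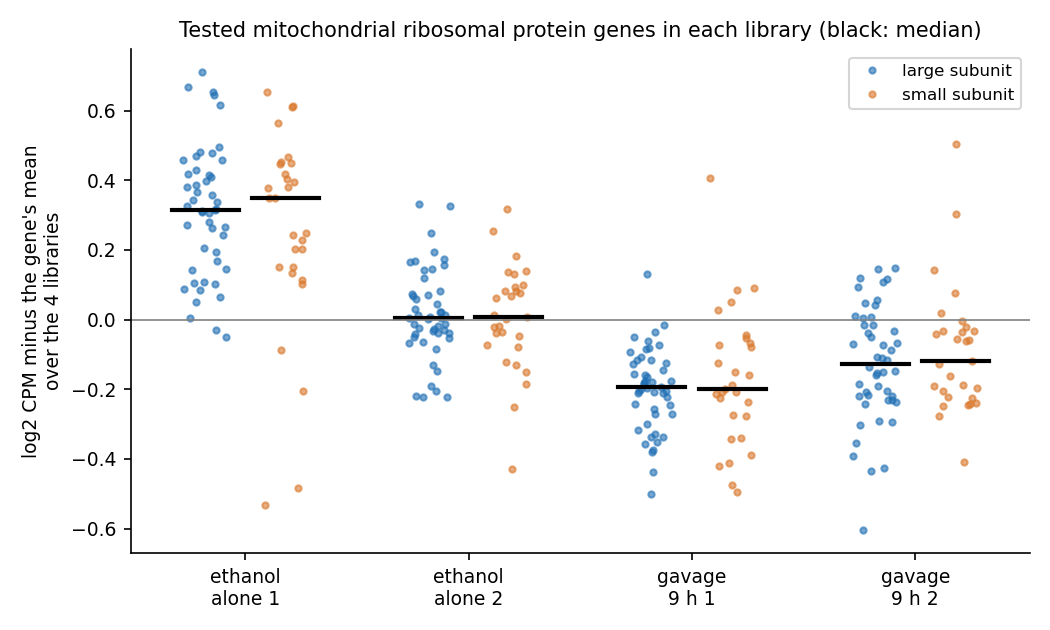
Each tested member in each library, as log2 CPM minus the gene's mean over the 4 libraries (points; black bars, medians by subunit). Medians over both subunits are 0.32 and 0.01 for ethanol alone replicates 1 and 2 and -0.20 and -0.12 for gavage replicates 1 and 2, with like medians in both subunits.

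Mrpl14 had the largest difference of the large subunit. It encodes uL14m, a protein of bacterial descent on the face of the large subunit that meets the small subunit, and lies at chr17:45686322-45698495 (GRCm38). Its CPM were 40.5 and 31.1 in ethanol alone and 18.2 and 16.2 in gavage, so both gavage libraries were well below both others. The log2 fold change was -1.05 (SE 0.20), with an adjusted p of 0.134 in edgeR's quasi-likelihood test and 0.00214 in DESeq2.

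Mrpl34 and Mrpl49 differed by less but with closely matched replicates. Mrpl34 encodes bL34m, a very small protein of bacterial descent. It measured 24.7 and 24.1 CPM in ethanol alone and 15.2 and 14.98 in gavage. The difference was -0.70 on the log2 scale (SE 0.15, edgeR adjusted p 0.1495). Mrpl49, whose protein mL49 has no bacterial counterpart, measured 30.5 and 28.6 against 19.5 and 19.6 CPM (log2 fold change -0.59, SE 0.15). In both genes the gap between the groups was several times the gap between replicates.

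Mrpl18 and Mrpl28 showed wide ethanol alone replicates and narrow gavage ones. Mrpl18, encoding uL18m, a protein of the central protuberance of the large subunit, had 49.4 and 34.3 CPM in ethanol alone and 24.0 and 23.0 in gavage. Its log2 fold change was -0.83 (SE 0.22). Mrpl28, encoding bL28m, had 49.5 and 35.3 against 22.3 and 25.6 CPM (-0.82, SE 0.22). Ethanol alone replicate 1 was the highest library for both, and replicate 2 still exceeded both gavage libraries. With an offset that removes the trend of each library in transcript length and GC content, the log2 fold changes were -0.48 for Mrpl14, -0.49 for Mrpl18, -0.41 for Mrpl28, -0.13 for Mrpl34 and -0.40 for Mrpl49.

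Of the large subunit, only Mrpl47 and Mrpl57 had a log2 fold change above 0, and both were within the spread of their replicates. Mrpl47 encodes uL29m, which sits near the exit of the peptide tunnel. It had 12.3, 12.3, 12.2 and 13.7 CPM, a log2 fold change of 0.07 (SE 0.18). Mrpl57, encoding mL63, had 17.1, 13.2, 14.5 and 16.4 CPM (0.03, SE 0.21). The groups overlapped for both.

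The small subunit held the clearest exception, within a family of 3 related genes. Mrps18a, Mrps18b and Mrps18c each encode a relative of bacterial S18. In structures of the mammalian ribosome the proteins take different places: that of Mrps18c (bS18m) holds the bacterial position, that of Mrps18b (mS40) sits elsewhere in the small subunit, and that of Mrps18a (mL66) belongs to the large subunit.

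Mrps18b, at chr17:35910379-35916389 on the minus strand, had 12.1 and 12.6 CPM in ethanol alone and 22.5 and 24.1 in gavage. Replicates were nearly equal within each group and the gavage libraries lay far above the others, a ratio of 1.88 in the fit. The log2 fold change was 0.91 (SE 0.16, adjusted p 0.133 in edgeR's quasi-likelihood test, 0.00331 in DESeq2). Over the 16 fits made, its log2 fold change ranged from 0.86 to 1.29. The annotation places 30.5% of its exon bases under another gene on the opposite strand, and no source used here gives the strand setting of the counting.

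Both relatives lay lower. Mrps18a had 34.7 and 25.4 CPM in ethanol alone and 21.8 and 21.5 in gavage (log2 fold change -0.47, SE 0.20, edgeR adjusted p 0.287). Mrps18c had 19.5 and 14.4 against 12.4 and 13.0 CPM (-0.42, SE 0.22, edgeR adjusted p 0.357). For both, every gavage library was below every ethanol alone library, by a margin smaller than that between the replicates of ethanol alone. With an offset for transcript length and GC content Mrps18c came to 0.02, Mrps18a to -0.31 and Mrps18b to 1.28.

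The stretches upstream of these genes are shown because their responses differed in sign. They are RefSeq sequence of GRCm38.p6, read 5′ to 3′ on the strand of the gene, from the 250 bases before each start and outside annotated UTRs. Capitals mark letters that match a motif named for a factor known to act on nuclear genes of mitochondria: GCATGCGC for NRF1 and CCGGAA or CCGGAAGT for GABP and other ETS factors, on either strand. Mrps18a is shown at chr17:46110754-46110985 (plus strand), Mrps18b at chr17:35916599-35916690 (minus strand) and Mrps18c at chr5:100798599-100798626 (plus strand).
Mrps18a: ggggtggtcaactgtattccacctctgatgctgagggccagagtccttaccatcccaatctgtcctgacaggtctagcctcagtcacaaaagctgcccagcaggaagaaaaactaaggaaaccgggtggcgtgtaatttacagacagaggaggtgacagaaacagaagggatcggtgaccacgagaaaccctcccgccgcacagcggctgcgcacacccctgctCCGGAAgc
Mrps18b: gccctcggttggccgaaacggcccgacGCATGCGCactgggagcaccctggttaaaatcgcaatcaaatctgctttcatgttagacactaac
Mrps18c: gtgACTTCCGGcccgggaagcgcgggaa
Each holds 1 stretch of capitals, NRF1 letters in Mrps18b and ETS letters in the others, the latter reverse complemented in Mrps18c. Of the runs outside UTRs, the one with the most motif letters was printed, so the capitals follow in part from that choice. The printed stretches end 18, 158 and 132 bases before the starts of Mrps18a, Mrps18b and Mrps18c. Ppp1r10, a gene on the opposite strand, begins 45 bases from Mrps18b. The stretch printed for Mrps18b, with its NRF1 letters, therefore lies past the start of Ppp1r10. In the full windows, which run 50 bases past the start, CCGGAA stands in all 3 genes. A match of letters is a description of these windows and shows no binding.

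Mrps2 was the only other small subunit gene with a log2 fold change over 0.1. It encodes uS2m, a protein of bacterial descent. Its CPM were 29.2 and 46.5 in ethanol alone and 45.0 and 52.1 in gavage, so the groups overlapped. Here ethanol alone replicate 1, the highest library for most members, was the lowest. The log2 fold change was 0.36 (SE 0.27, edgeR adjusted p 0.501), and 0.04 without ethanol alone replicate 1. Mrps30 (27.1, 22.7, 26.1 and 25.1 CPM) and Mrps26 (17.9, 14.1, 15.6 and 17.0 CPM) lay at 0.04 and 0.03, each less than its SE.

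On the lower side, Mrps24 came first among small subunit genes. It encodes uS3m, at the entrance through which messenger RNA reaches the decoding centre. It had 50.1 and 35.9 CPM in ethanol alone and 23.3 and 27.6 in gavage (log2 fold change -0.76, SE 0.22). Mrps16, encoding bS16m, had 23.3 and 16.9 against 12.0 and 13.0 CPM (-0.69, SE 0.22). Neither gene's groups overlapped, and the replicates of ethanol alone were further apart than those of gavage. With the offset Mrps24 came to -0.32 and Mrps16 to -0.62.

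Next came Mrps12 and Mrps11, both of bacterial descent. Mrps12 encodes uS12m, which helps to monitor the pairing of codon and anticodon, and measured 32.9 and 26.8 CPM in ethanol alone against 20.9 and 22.2 in gavage (log2 fold change -0.47, SE 0.17). Mrps11, encoding uS11m, measured 12.7 and 10.6 against 7.64 and 8.47 CPM (-0.54, SE 0.20). The gavage libraries were the lower ones for both. With the offset for length and GC content Mrps12 came to 0.00 and Mrps11 to -0.13.

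**Figure D3:**
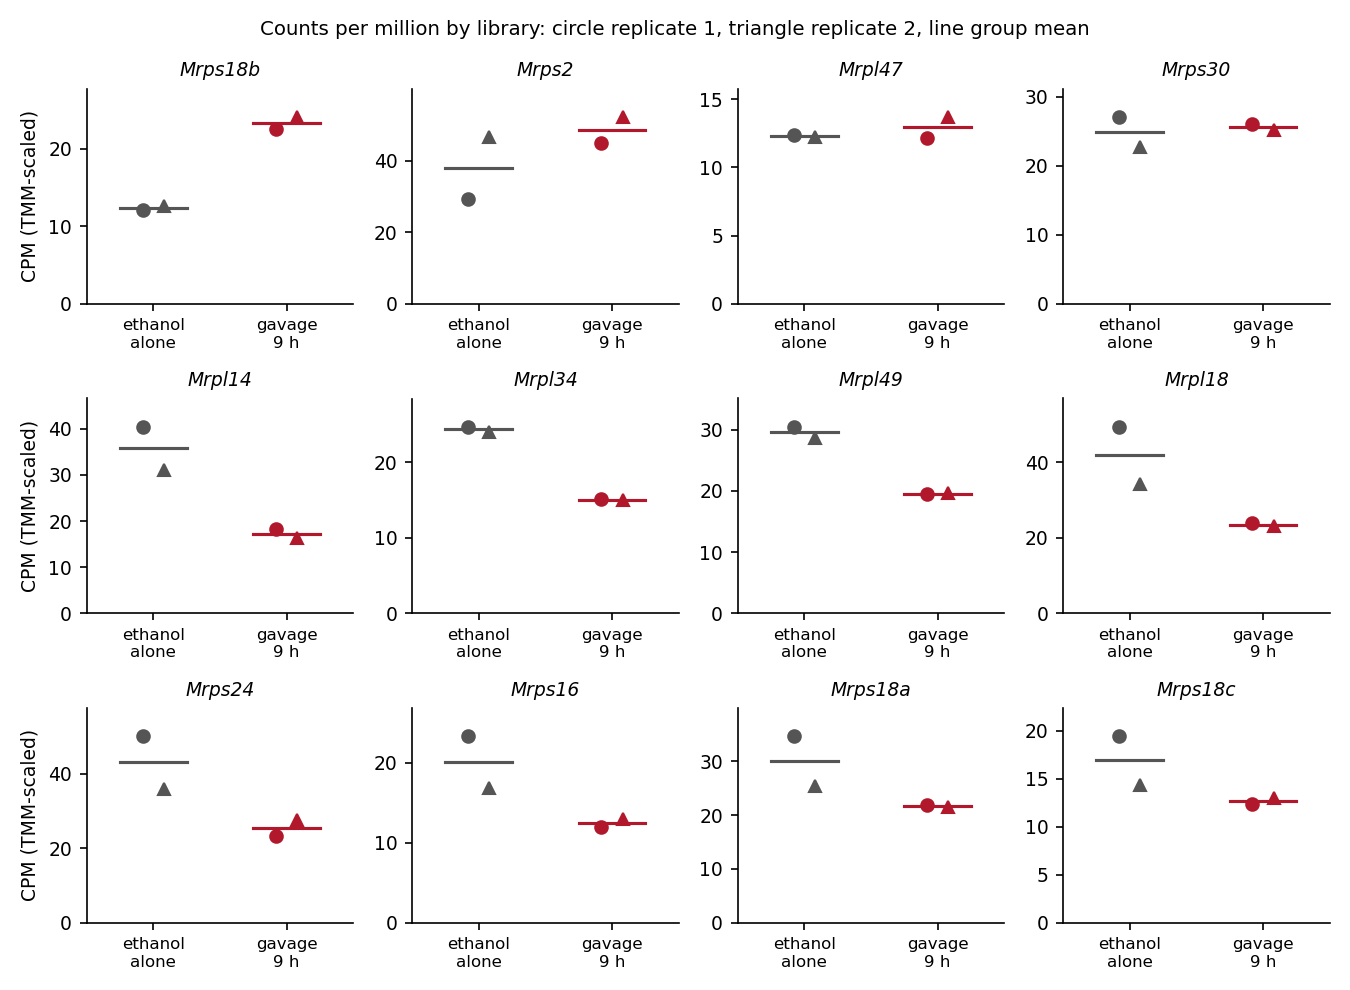
CPM of 12 members in each library (circles, replicate 1; triangles, replicate 2; lines, group means; each axis starts at 0). Mrps18b is at 12.1 and 12.6 in ethanol alone and 22.5 and 24.1 in gavage, Mrpl14 is at 40.5 and 31.1 against 18.2 and 16.2, and Mrps2 overlaps between groups.

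Large and small subunits differed little from each other. Summed CPM of the large subunit were 1626 and 1315 in ethanol alone and 1130 and 1209 in gavage, and those of the small subunit 744 and 615 against 553 and 589. The ratio of large to small was 2.19 and 2.14 in ethanol alone and 2.04 and 2.05 in gavage, slightly lower in both gavage libraries. That ratio follows the number of genes and their transcript lengths and is no measure of ribosome stoichiometry. The median of the small subunit was the lower one, at -0.42 against -0.31, but with the offset for length and GC content the order turned, at -0.12 for large and -0.10 for small.

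Members were also grouped by ancestry. Among large subunit genes the median was -0.29 for the 30 with a bacterial counterpart and -0.36 for the 18 tested without one, and among small subunit genes it was -0.46 for 16 and -0.28 for 12. Mrps18a and Mrps18b, although relatives of bacterial S18, were counted among those 12. The order of the classes was opposite in the subunits in this fit, but not in others. With the offset for length and GC content the class with a bacterial counterpart was the lower one in both subunits. Its medians were -0.14 against -0.08 in the large and -0.13 against -0.06 in the small subunit. Without ethanol alone replicate 1 they were -0.19 against -0.13 and -0.20 against -0.15. Moving Mrps18a and Mrps30, whose proteins sit in the large subunit despite their symbols, and leaving out Mrps36, left the medians at -0.31 and -0.42.

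Levels of different genes were compared as CPM per kilobase of the longest annotated transcript. Mrpl12 was the most abundant member, at 73.4, 57.7, 46.5 and 46.5 CPM per kilobase. It encodes bL12m, the flexible stalk protein that recruits translation factors and is present in several copies on each ribosome. On the CPM scale it measured 96.6 and 75.9 in ethanol alone and 61.2 in both gavage libraries, a log2 fold change of -0.49 (SE 0.20, edgeR adjusted p 0.273). Its upstream stretch at chr11:120484387-120484612 (plus strand, RefSeq, GRCm38.p6) holds a match to the longer NRF1 motif, in capitals here.
Mrpl12: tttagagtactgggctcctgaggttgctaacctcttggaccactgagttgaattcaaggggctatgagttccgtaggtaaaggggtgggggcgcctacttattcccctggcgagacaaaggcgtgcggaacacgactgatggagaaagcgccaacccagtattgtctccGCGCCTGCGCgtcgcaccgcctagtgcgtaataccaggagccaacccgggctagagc
Stretches chosen by the same rule upstream of Mrpl14 (chr17:45686260-45686321, plus strand) and Mrpl34 (chr8:71464676-71464925, plus strand) are printed for contrast. These were the large subunit genes with the smallest p on the lower side.
Mrpl14: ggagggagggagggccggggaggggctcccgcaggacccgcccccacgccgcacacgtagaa
Mrpl34: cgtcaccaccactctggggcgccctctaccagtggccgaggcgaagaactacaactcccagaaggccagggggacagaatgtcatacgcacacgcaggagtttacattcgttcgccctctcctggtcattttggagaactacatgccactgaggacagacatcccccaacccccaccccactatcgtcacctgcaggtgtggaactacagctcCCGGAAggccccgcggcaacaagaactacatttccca
Mrpl34 holds the short ETS letters, and this stretch of Mrpl14 holds none of those searched, while its full window holds the longer NRF1 motif.

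After Mrpl12 came Mrpl24 (54.2, 35.5, 36.6 and 41.7 CPM per kilobase) and Mrpl14 (62.8, 48.2, 28.3 and 25.2). Mrpl24, encoding uL24m, a protein placed early in large subunit assembly, overlapped between groups, while Mrpl14 did not and passed below Mrpl24 in both gavage libraries. In the small subunit Mrps24 (50.4, 36.1, 23.4 and 27.7), Mrps12 (37.3, 30.3, 23.7 and 25.1) and Mrps7 (37.7, 26.9, 24.3 and 23.6) led, all on the scale of CPM per kilobase. The levels of Mrps12 and Mrps7 did not differ beyond their spread over libraries. The order after Mrpl12 depended on the length used. Per kilobase of all annotated exon bases, means over the libraries were 48.1 for Mrpl12, 32.5 for Mrpl34, 27.95 for Mrpl14 and 24.95 for Mrpl24. In the small subunit they were 26.6 for Mrps7, 24.7 for Mrps12 and 23.4 for Mrps24.

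The least abundant tested members were Mrpl48, Mrpl19 and Mrpl23 in the large and Mrps25, Mrps33 and Mrps36 in the small subunit. Mrpl23 lay between 0.25 and 0.33 CPM per kilobase in the 4 libraries and Mrps36 between 0.47 and 0.71. Pseudogenes carry the names of Mrpl23 (1), Mrpl48 (1) and Mrps36 (3) in the annotation, so reads of near-identical copies could have been lost in the authors' counting and these low levels are uncertain. Mrps25 shares 69.8% of its exon bases with a gene on the opposite strand. Mrpl53 was not tested: it had 1 count in ethanol alone replicate 1 and 0 in the other libraries, and 88.0% of its exon bases lie within other genes on the same strand.

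Some members have a role of their own. Mrpl44, which resembles a ribonuclease, had 22.5, 20.4, 17.9 and 21.03 CPM, with overlapping groups and a log2 fold change of -0.14 (SE 0.17). Mrpl58, a former release factor that frees peptides from stalled ribosomes, had 28.7, 19.7, 18.4 and 18.3 CPM (-0.40, SE 0.22). Mrps27, a pentatricopeptide repeat protein, had 28.1, 29.1, 18.2 and 23.8 CPM (-0.45, SE 0.19), and in it ethanol alone replicate 1 did not exceed replicate 2. Mrps36, now known as a subunit of the 2-oxoglutarate dehydrogenase complex and not of the ribosome, had 0.33, 0.50, 0.41 and 0.33 CPM, too few counts to show a difference of this size (-0.15, SE 0.59). Mrps30, described above and known for a role in cell death, also belongs here, at 0.04 with overlapping groups.

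The largest ratio between replicates was that of Mrps28 within ethanol alone and that of Mrps35 within gavage. Mrps28 (bS1m) had 19.1 and 10.2 CPM in ethanol alone and 10.9 and 10.2 in gavage, so its log2 fold change of -0.47 rested on ethanol alone replicate 1 and was 0.03 without it. Mrps35 (mS35) had 17.6 and 24.9 CPM in gavage, against 31.9 and 25.9 in ethanol alone. Its groups did not overlap, although the nearest libraries were closer than the replicates of either group.

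Transcript length and GC content moved with the difference. Members had a median longest transcript of 1884 bases against 3405 for all tested genes with a length. Tested genes were split by length into 5 bins of equal number. In the shortest quintile (255 to 1994 bases, 2622 genes), the median log2 fold change was -0.29 and 70.1% were under 0, and in the longest quintile the median was 0.23. The 40 members in the shortest quintile had a median of -0.44, or -0.01 with the offset for length and GC content. Members in the longer quintiles, 13, 12, 9 and 3 genes from shorter to longer, had medians of -0.14, -0.25, -0.12 and -0.37, below the medians of all genes there (-0.08, 0.04, 0.09 and 0.23).

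Over the 77 tested members, log2 fold change and log2 length had a Pearson r of 0.39 and a Spearman rho of 0.49, with GC content -0.36 and -0.45, as descriptions over genes that share the same 4 libraries. In ethanol alone replicate 1 the shortest quintile of all genes lay 0.31 above its mean over libraries on the log2 scale and the longest quintile -0.24. With the offset for both, the median member was -0.11 and 54 of 77 were under 0, against 48.3% of all genes. The medians were then -0.12 for the large and -0.10 for the small subunit, and 0 members passed the adjusted threshold. Members in the longer quintiles of length had medians of -0.09, -0.29, -0.23 and -0.58 with the offset, against -0.01 in the shortest. The source of the trend was not tested.

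**Figure D4:**
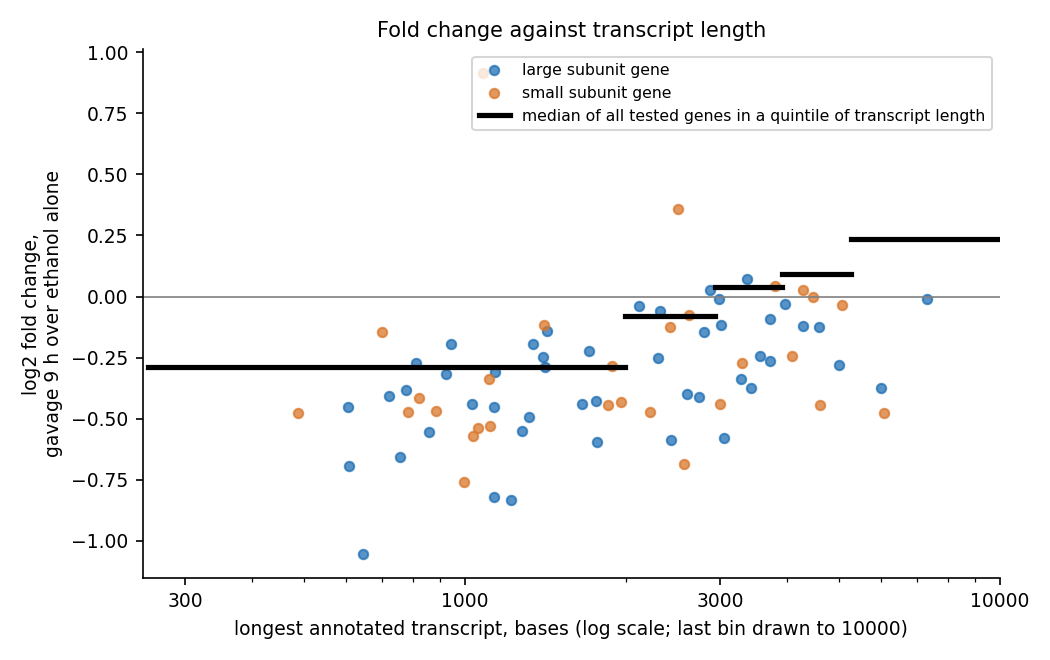
Log2 fold change of each tested member against its longest annotated transcript (log axis; blue, large subunit; orange, small subunit; black bars, median of all tested genes in each quintile of length). The black bars climb from -0.29 in the shortest quintile to 0.23 in the longest, and 40 of the members lie in the shortest.

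Markers of other cells are given for the whole lists. Macrophage and Kupffer cell markers summed to 798 and 777 CPM in ethanol alone and 457 and 542 in gavage, with 11 of 12 lower, without overlap of the groups. The 5 erythroid markers summed to 197, 94.8, 96.3 and 73.8 CPM, with overlap. T and B cell markers (9.15, 3.57, 7.29 and 2.46 CPM) and cholangiocyte markers (80.6, 65.5, 72.9 and 57.4 CPM) also overlapped. Markers of sinusoidal endothelium summed to 418, 426, 379 and 414 CPM. Most of the adipose sum (2056, 1939, 687 and 611 CPM) was Car3 (1975, 1924, 549 and 558 CPM). Of the 8 tested adipose markers, 1 had a log2 fold change under 0. Stellate cell markers summed to 454 and 401 CPM in ethanol alone and 517 and 457 in gavage, and neutrophil markers to 5.20 and 4.56 against 18.8 and 6.74. Both sums were higher in gavage, but the nearest libraries of the stellate sum almost met. The neutrophil sum was high mainly in gavage replicate 1, and only 4 of its 11 markers had enough counts to test. Hepatocyte markers summed to 142127, 123373, 107650 and 126522 CPM, with the same highest and lowest library as the members. Most of that sum was the albumin gene Alb (110898, 100866, 83277 and 99816 CPM), and 6 of the 8 markers had a log2 fold change under 0. The part of these cells in the members' differences was not tested.

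In the main fit, lists of other genes of mitochondrial translation had medians near 0, apart from subunits whose symbols fall outside the pattern. Of these, Dap3, Ptcd3, Chchd1, Aurkaip1 and Gadd45gip1 had a median of -0.44, with 4 of 5 under 0 and 1 lower at an unadjusted p under 0.05 (Chchd1, 36.4 and 23.0 CPM in ethanol alone, 17.4 and 19.0 in gavage, -0.71, SE 0.25). For 15 translation factors the median was -0.01, with 1 higher and 0 lower at that threshold, the higher being Lrpprc, a protein that stabilises mitochondrial messenger RNA (109 and 137 against 199 and 182 CPM). Its partner Slirp had 21.9 and 15.6 against 12.7 and 12.9 CPM (-0.55, SE 0.22), on the other side of 0.

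Assembly factors of the ribosome (27 genes) had a median of -0.01, with 2 higher and 0 lower at the unadjusted threshold, among them Trub2, a pseudouridine synthase (9.12, 10.8, 15.7 and 18.6 CPM, log2 fold change 0.78, SE 0.20). Mpv17l2, with 14.4, 7.80, 6.24 and 6.58 CPM, lay lowest. The 20 aminoacyl-tRNA synthetases of mitochondria had a median of -0.04 with 1 higher and 3 lower. The methionine enzyme Mars2 (3.33, 7.33, 9.65 and 13.4 CPM) and the alanine enzyme Aars2 (17.8, 17.8, 12.1 and 12.0 CPM) stood at opposite ends. The 19 genes of mitochondrial DNA expression and RNA processing had a median of 0.06 and 0 at that threshold. Mtpap, the mitochondrial poly(A) polymerase (18.8, 20.0, 23.0 and 25.1 CPM), and Hsd17b10, a subunit of mitochondrial RNase P (109, 79.0, 54.6 and 69.2 CPM), lay on opposite sides of 0. With the offset for length and GC content, translation factors had a median of 0.06 and assembly factors 0.02. By that offset the synthetases had -0.12, the DNA expression and RNA processing genes 0.09, and the members -0.11. Median longest transcripts of these 4 lists were 2623, 2419, 3417.5 and 3002 bases, against 1884 for the members.

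Subunits of the respiratory chain encoded in the nucleus had a median of -0.62 over 80 genes, 76 of them under 0 and 40 lower at the unadjusted threshold. Without ethanol alone replicate 1 their median was -0.38, and with the offset for length and GC content -0.22. Ndufv3, a subunit of complex I, had 91.6 and 55.3 CPM in ethanol alone and 33.3 and 33.5 in gavage (-1.14, SE 0.28), and Ndufa8, of the same complex, 81.3 and 63.5 against 108 and 81.6 (0.39, SE 0.24). Cytosolic ribosomal proteins had a median of -0.38 over 78 genes, which was -0.03 without ethanol alone replicate 1 and 0.02 with the offset. By the same changes the mitochondrial ribosomal proteins went to -0.20 and -0.11. Rpl10a (6.99, 6.01, 11.5 and 15.5 CPM) and Rps27l (85.2, 60.4, 40.7 and 42.2 CPM) had the smallest p among the cytosolic genes on the higher and the lower side.

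The 14 genes of mitochondrial content had a median of -0.09, with 0 higher and 2 lower at the unadjusted threshold. Among the lower was Hspe1, the cochaperonin of the matrix (28.04 and 24.6 against 16.8 and 17.0 CPM, -0.64, SE 0.16), while Tomm20, an import receptor of the outer membrane, had 18.4 and 22.6 against 26.8 and 25.7 CPM (0.36, SE 0.17). Of the 13 messages of the mitochondrial genome in the table, only 8 had enough counts to test. Their median was -0.05, but -0.30 without ethanol alone replicate 1 and 0.19 with the offset for length and GC content. In the main fit 0 of the 8 passed that threshold in either direction. Of these, mt-Nd5 had 3273, 6158, 5620 and 6644 CPM and mt-Nd6 had 686, 502, 398 and 442 CPM, with overlapping groups for the first and not for the second. The RNAs of the mitochondrial ribosome were not analysed here.

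**Figure D5:**
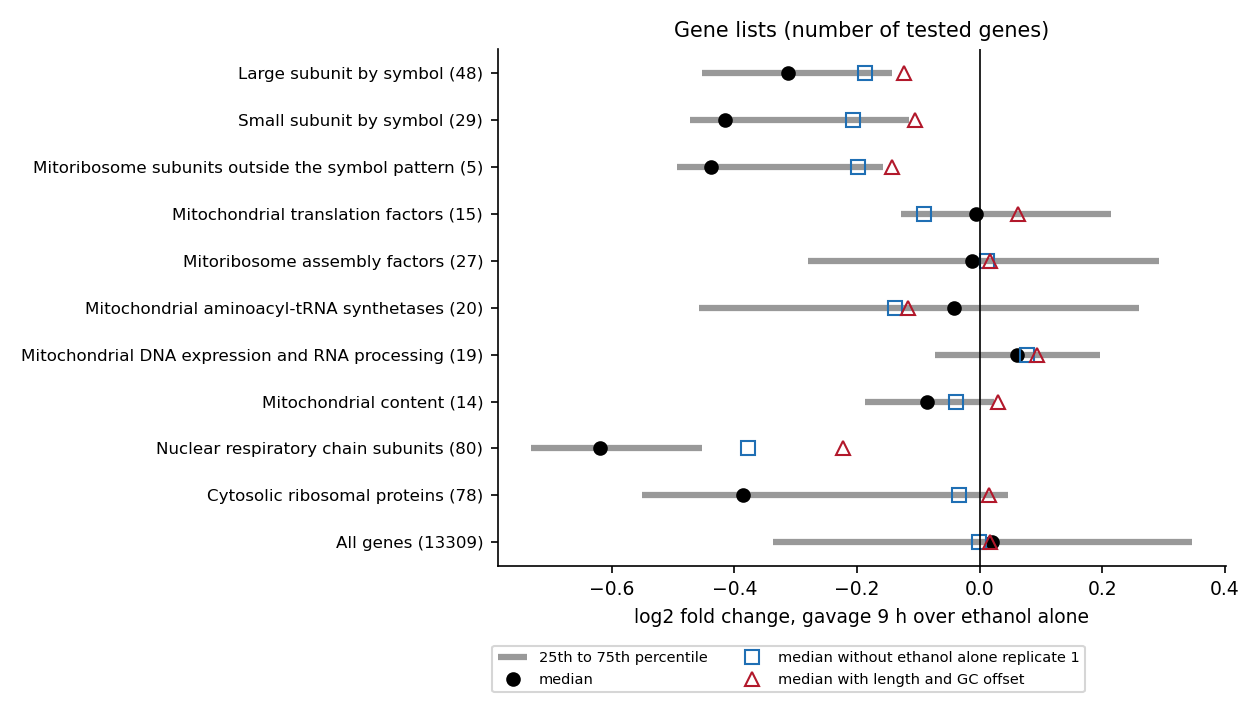
Median log2 fold change of each gene list (black points; grey bars, 25th to 75th percentile of the genes), with the median without ethanol alone replicate 1 (squares) and with the length and GC offset (triangles). The large and small subunit, at -0.31 and -0.42, stay below 0 in all 3, while cytosolic ribosomal proteins go from -0.38 to -0.03 and 0.02.

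Among 11 transcription factors known to act on nuclear genes of mitochondria the median was 0.41. At the unadjusted threshold 5 lay higher and 0 lower, beside 8.91% and 9.85% of all tested genes. With the offset for length and GC content the median was 0.30, and the median longest transcript of the list was 4153 bases. Myc had 2.89 and 2.18 CPM in ethanol alone and 8.09 and 15.6 in gavage (log2 fold change 2.23, SE 0.39, edgeR adjusted p 0.133). The coactivator gene Ppargc1a had 19.8 and 16.4 against 11.8 and 14.2 CPM (-0.47, SE 0.20). Neither gene's groups overlapped, and their differences had opposite signs.

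Promoters of the members shared letters of these factors. RefSeq windows from 250 bases before to 50 after the start were at hand for 69 of the 78 members and 27025 genes in all. Those 27025 were not limited to tested or protein-coding genes, whereas 77 of the 78 members were tested. Motifs were searched on both strands. The short ETS letters CCGGAA stood in 58.0% of members against 16.7% of all genes, and CCGGAAGT, which contains them, in 17.4% against 4.31%. The longer NRF1 motif, whose middle leaves 1 base free, stood in 18.8% against 5.19%, and the overlapping short core GCATGCGC in 11.6% against 3.05%. YY1 letters AAGATGGC stood in 17.4% against 3.19%.

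The E-box CACGTG, known to be read by MYC, stood in 7.25% of members against 8.09% of genes, and TATAAA in 7.25% against 15.7%. Tested members with and without CCGGAA had medians of -0.37 (39 genes) and -0.32 (29 genes), and those with and without AAGATGGC -0.44 (12 genes) and -0.29 (56 genes). The 13 with the longer NRF1 motif had -0.25 and the 55 without it -0.34. All these classes lay below 0.

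Many members start beside another gene. A protein-coding gene on the opposite strand began within 1000 bases upstream for 18 of 77 tested members (23.4%), against 9.69% of 13051 tested protein-coding genes. In the 17 pairs with both genes tested, the members had a median of -0.38 and the neighbours -0.03, with 9 neighbours under 0. Mrps18b begins 45 bases from Ppp1r10, a regulatory subunit of protein phosphatase 1. Ppp1r10 had 27.6 and 36.2 CPM in ethanol alone and 54.3 and 31.4 in gavage, with overlapping groups (log2 fold change 0.43, SE 0.31), unlike the closely matched replicates of Mrps18b.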

How the data were processed

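Each of 4 mouse liver libraries, 2 per group, was placed by its title, since the treatment text of the labels reads alike for all. The deposited values are whole-number read counts per gene symbol, not normalised, made by the authors from their reads. The submitters' processing notes list HTSeq, STAR 2.6.0a, bcl2fastq 2.20.0.422 and edgeR, with GRCm38 as build. No source used here gives the annotation, the strand setting or the handling of reads with several matches. The labels name a KAPA kit beside a TruSeq kit. Replicates differed by more than sampling noise (chi-square per degree of freedom 126 and 135).

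Counts were analysed with edgeR 4.0.16 in R 4.3.3: filterByExpr by group (minimum count 10, minimum total 15), TMM, the quasi-likelihood F-test (2-sided, no covariate), and Benjamini-Hochberg adjustment with a threshold of 0.05. The SE was derived from the fold change and the F statistic, as the size of the log2 value over root F. Alternatives were DESeq2 1.42.0, limma-voom (limma 3.58.1), edgeR's likelihood-ratio test, other scalings and filters, a replicate block, an offset for length and GC content by loess (span 0.5), and leaving out each library. The depth gave a floor of 3 counts at 0.0955 to 0.110 CPM per library, for counting error only. Symbols were matched to GENCODE M21, and promoter windows are RefSeq GRCm38.p6.

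Named members were, in each subunit, the 4 with the smallest p each way at a mean of at least 1 CPM, the 3 most and 3 least abundant per kilobase, the Mrps18 genes, those with a role of their own and those with the largest ratio between replicates. In other lists the gene with the smallest p each way was named. Mrpl28, Mrpl53 and the further genes listed by p were named after their values were seen. The members and lists were chosen with earlier results of these data known. The short NRF1 core and the quintiles of transcript length were added after seeing the data.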

Additional observations from a re-analysis of the deposited data

How the results depend on the processing

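The members' median stayed under 0 in every alternative run, but its size did not hold. Leaving out each library gave -0.52 to -0.20 for all members, -0.52 to -0.19 for the large and -0.54 to -0.21 for the small subunit. The length and GC offset gave -0.11, -0.12 and -0.10, and with the replicate block -0.11, -0.11 and -0.11. Of the 77 tested members, 42 stayed under 0 and 2 over 0 in all 16 fits, and 33 took both signs. With 2 libraries per group, an exact permutation test cannot go below p = 0.333.

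Calls depended on the test. DESeq2 called 525 genes higher and 652 lower (members 1 and 4), and the likelihood-ratio test 285 and 264 (members 1 and 1). The replicate block called 238 and 172 (members 0 and 1, Mrpl14), and with the offset 186 and 130 (1 member higher). The labels do not say that equal numbers pair the libraries. Deviations of the libraries numbered 1 correlated at 0.59 over 13309 genes, with only 2 pairs to judge by. Leaving out a library gave 0 to 31 genes higher and 0 to 10 lower, and 0 members each way. At an unadjusted p under 0.05, leaving out a library gave 1 to 2 members higher, beside 4.68% to 11.6% of all genes, and 1 to 42 lower, beside 3.87% to 14.1%, and the offset with the block gave 2 higher, beside 12.8%. Under library totals 63 of 77 members were under 0, beside 42.3% of all genes, and 3 members lay higher without overlap. The share of all genes higher without overlap was 27.5% under TMM and is not given for library totals.

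The median of all genes was 0.0172 with DESeq2 size factors and with DESeq2, 0.0155 with the stricter filter, 0.0171 with the offset, -0.0148 with upper-quartile factors, 0.0975 with library totals, 0.0332 with no filter, and -0.0261 to 0.0183 without each library.

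Of the members described above, these turned sign. With the offset, and then with the offset and block, Mrpl24 gave 0.11 and 0.12, Mrpl44 0.14 and 0.14, Mrps12 0.00053 and 0.0022, Mrps18c 0.0247 and 0.0248, Mrps26 -0.0598 and -0.0450, Mrps28 0.0735 and 0.0861, Mrps30 -0.0171 and -0.0112, and Mrps36 0.29 and 0.33. Upper-quartile factors gave -0.0148 for Mrpl57 and -0.0144 for Mrps26. Leaving out a library gave -0.29 to 0.0758 for Mrpl23, -0.52 to 0.12 for Mrpl24, -0.0222 to 0.16 for Mrpl47, -0.42 to 0.14 for Mrpl48, -0.20 to 0.20 for Mrpl57, -0.19 to 0.18 for Mrps26, -0.91 to 0.0264 for Mrps28, -0.13 to 0.15 for Mrps30 and -0.43 to 0.13 for Mrps36. The cause was not tested.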
